A study of Oryctolagus cuniculus with 6 samples.

Results

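Of the 15280 transcribed loci listed in rabbit skin, 2521 (16.5%) carried no Ensembl gene ID in any row of any library. These loci without an ID were chosen by that empty annotation alone, with no use of their levels, and the other 12759 loci, which carried an ID, are the set they are compared with. The skin came from rabbits (Oryctolagus cuniculus) aged 30 days, with 3 RNA libraries from Prss53-/- skin and 3 from wild-type skin by their labels. The knockout was made by CRISPR/Cas9. All came from whole skin, frozen, with RNA taken up in Trizol, and whether the libraries of a genotype are separate animals is not stated, so a p-value here reflects the spread among samples that may be technical repeats. Prss53 encodes a trypsin-like serine protease of the hair follicle. The Ensembl IDs are not paired with gene names in the files, so neither the level of Prss53 nor skin marker genes were analysed here as a check of the labels.

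When reads are assembled into transcripts, loci outside the reference annotation also appear. Such loci are known to include long non-coding RNAs, pieces of known genes such as an unannotated first exon or a long transcript end, copies of gene families on unplaced sequence, and coding genes that the annotation of a less studied species lacks. The tables give structure and level and no sequence, so which of these a given locus is cannot be read from them. Levels are FPKM, fragments scaled by transcript length and by sequencing yield, and a locus level is the largest of its summed first-exon values, its summed last-exon values and its highest single event. A locus missing from a library is written as not listed and entered the tests as 0. Positions are given as deposited, without a genome build.

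The loci without an ID were short, and every one whose 2 ends were listed counted as spliced, meaning that its first and last exons differed. In 2466 of the 2521 both a first and a last exon were listed, and in all 2466 the set of first exons differed from the set of last exons. A further 43 had a first exon only and 12 a last exon only, and in 0 were the 2 sets the same. The same count of 0 held for the loci with an ID, of which 870 had a first exon only and 833 a last exon only. No single-exon locus was thus found in either set where both ends were listed. For loci with 1 end listed this could not be checked. Because whole sets were compared, a single-exon transcript in a locus with other ends would not be seen. The count of 0 was shared by both sets and does not set the loci without an ID apart. The median span was 7150 bases, with quartiles of 2736 and 21713 bases, against a median of 24632 bases for loci with an ID. Spans under 2 kb made up 18.0% of the loci without an ID and 9.82% of those with one, and spans over 100 kb made up 5.08% and 16.1%. The last exon, which in known genes usually holds the long untranslated end, had a median length of 333.5 bases, against 1193 bases with an ID. First exons were closer in length, with medians of 195 and 251 bases. A single first exon was listed at 2084 loci (82.7%), against 63.2% of loci with an ID. An alternative exon, intron or exon boundary was listed at 348 (13.8%), against 46.1%.

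Part of these gaps went with how often a locus was listed. Among the 658 loci without an ID that were listed in all 6 libraries, the median span was 13054 bases, the median last exon 582 bases and the share with an alternative form 33.7%. The loci with an ID that were listed in all 6 had 29188 bases, 1341 bases and 52.0%. Among the 1058 loci without an ID that were listed in 1 library, the median span was 4516 bases and 9 loci had an alternative form. These structure values are descriptions and were not tested.

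The loci without an ID were listed less regularly than the others. In the knockouts 1254, 1284 and 1278 of the loci without an ID were listed, and in wild type 1162, 1228 and 1278. A library thus listed 49.5% ± 1.85 of the loci without an ID and 88.8% ± 0.740 of the loci with one (SD, n = 6 libraries). The difference of -39.3 ± 2.00 percentage points had the same sign in 6 of 6 libraries (exact sign permutation over libraries, two-sided, p = 0.03125, the smallest that 6 libraries allow). The same 2 sets of loci are compared in every library, so this p-value reflects the spread among libraries and not among loci. Only 26.1% of the loci without an ID were listed in all 6 libraries, against 80.2% of the others, while 41.97% were listed in a single library, against 7.18%. Those 1058 loci were spread over the libraries, with 204, 162 and 194 in the knockouts and 144, 173 and 181 in wild type.

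**Figure D1:**
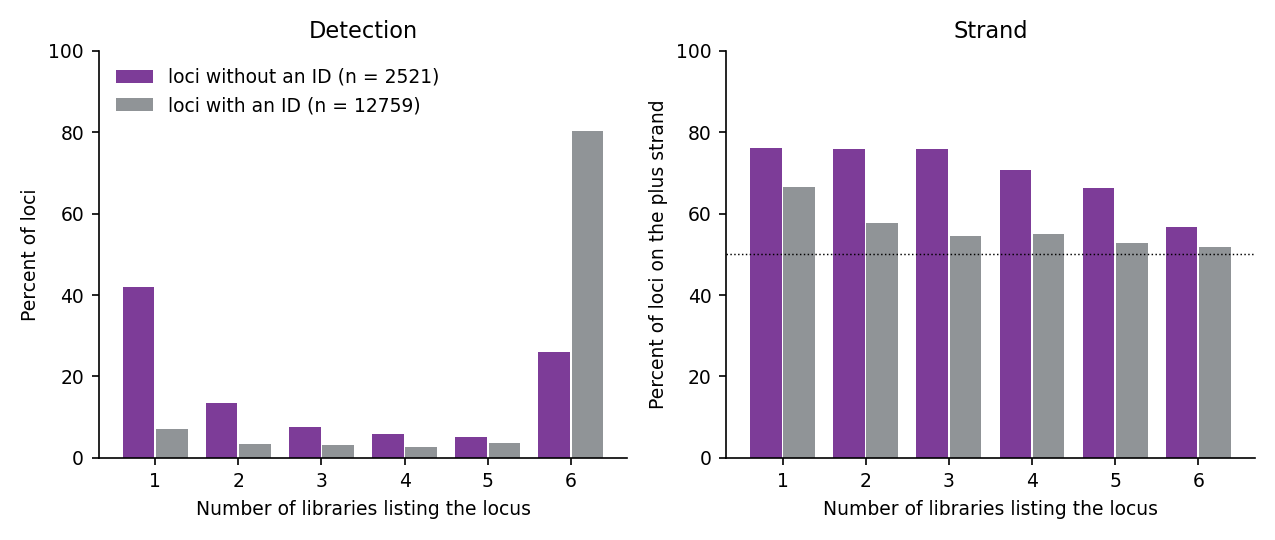
Left, percent of loci listed in 1 to 6 of the 6 libraries, for the 2521 loci without an Ensembl ID and the 12759 with one; right, percent of the loci in each of these classes that lie on the plus strand, with a dotted line at 50%. The loci without an ID pile up at 1 library (41.97%) and the others at 6 (80.2%), and the plus-strand share of the loci without an ID runs between 76.2% at 1 library and 56.7% at 6.

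The strand was uneven. The files put 1770 of the loci without an ID on the plus strand and 751 on the minus strand (70.2% plus), against 53.2% plus for loci with an ID. Among the loci without an ID the plus share was 76.2% where 1 library listed the locus and 56.7% where all 6 did. Among loci with an ID it was 66.5% and 51.7% in the same classes. It was alike on chromosomes (70.2%) and on unplaced scaffolds (70.3%). Within single libraries 64.6% ± 0.462 of the listed loci without an ID and 52.2% ± 0.0722 of those with one were on the plus strand (SD, n = 6 libraries). The difference was 12.4 ± 0.441 points, and 5.79 points among loci of at least 1 FPKM. Each locus has 1 strand in all libraries, so the libraries are no independent evidence and no test was made. The kit named in the labels does not mark the strand of the RNA, and how the strand of each locus was assigned is not given in the sources used here.

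Most of the loci lay apart from genes with an ID. A total of 230 overlapped one, 42 on the same strand and 188 on the opposite strand, and 286 were on a sequence that held no locus with an ID. The remaining 2005 lay apart at a median distance of 22860 bases, with 227 within 1 kb, 299 at 1 to 5 kb, 801 at 5 to 50 kb and 678 over 50 kb away. Distances run to the nearest locus that these tables list, so a gene that is silent in skin does not count as a neighbour. On strand, 1033 of the 2005 matched the nearest locus with an ID and 972 were opposite to it. Within 1 kb the opposite strand prevailed, with 148 of 227 loci, and 123 of these lay head to head with their neighbour, the arrangement of a promoter that is read in both directions. A further 25 lay tail to tail, 36 lay downstream of a neighbour on the same strand, where an unannotated transcript end would be, and 43 lay upstream on the same strand, where an unannotated first exon would be. These orientations are positions only, and no shared promoter or transcript was shown. They also rest on the strand given for each locus, which the kit does not mark, and 67.4% of the loci within 1 kb were put on plus. A transcript joined into 1 locus with a gene that has an ID is not counted here. The split by strand, also among overlapping loci, thus depends on how loci were joined, which is not given.

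**Figure D2:**
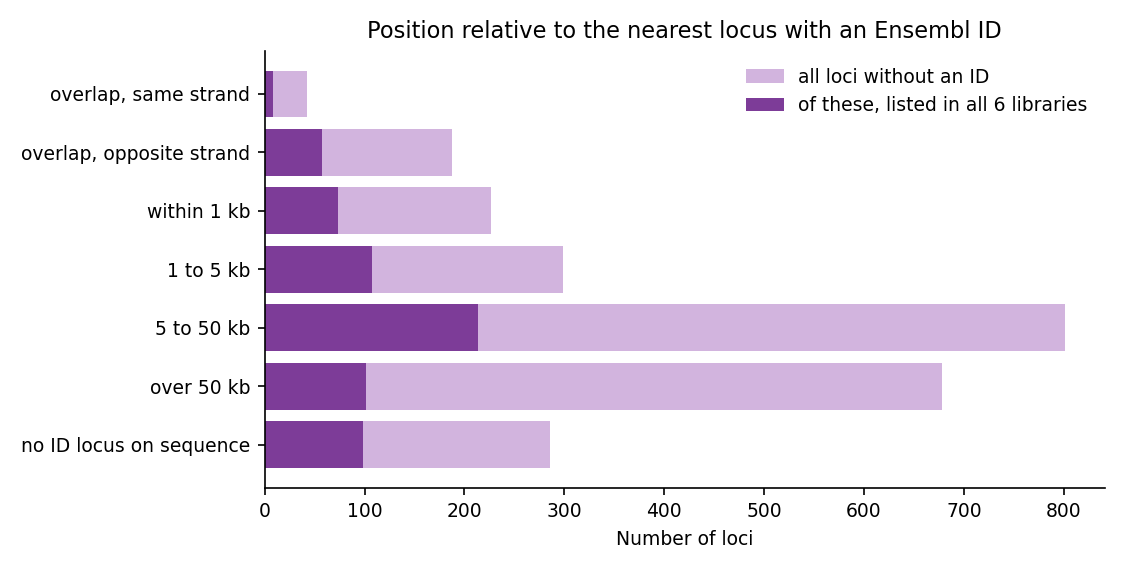
Number of loci without an Ensembl ID by position relative to the nearest locus with one (light bars), and the number of these listed in all 6 libraries (dark bars). The class at 5 to 50 kb is the largest with 801 loci, 214 of them listed in all 6, and of the 678 loci over 50 kb away 101 were.

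Position went with how regularly a locus was listed. Among the 678 loci over 50 kb away 14.9% were listed in all 6 libraries, with a median span of 8595 bases. Among the 299 loci at 1 to 5 kb 35.8% were, and among the 286 on sequences with no ID locus 34.3% were. Unplaced scaffolds held 969 of the loci without an ID (38.4%), against 25.7% of the loci with one, and 325 of the 658 listed in all 6. There were 29.6 loci without an ID per 100 with one on unplaced scaffolds. On the numbered chromosomes and X the figure lay between 10.4 on chromosome 19 and 22.8 on chromosome 20. Loci without an ID also lay beside each other, since 326 of them (12.9%) had another within 10 kb on the same strand. Such neighbours may be pieces of 1 transcript and are not independent loci. The window from 32 to 42 Mb on chromosome 13 held 26 of the loci, 4 of them listed in all 6 libraries. Of the 9 tested there 0 passed the genotype test described below (lowest limma adjusted p = 0.0842). Among all loci without an ID that were tested 3.15% passed, and among all genes 0.944%, so 9 loci are too few to set the window apart.

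The loci without an ID were expressed at lower levels. Among listed loci the median was 1.55, 1.51 and 1.65 FPKM in Prss53-/- skin, against 1.69, 1.53 and 1.39 FPKM in wild-type skin, while loci with an ID had library medians between 6.13 and 7.02 FPKM. On the log2(FPKM + 1) scale the library medians averaged 1.35 ± 0.06 without an ID and 2.91 ± 0.06 with one, a difference of -1.56 ± 0.08 seen in 6 of 6 libraries (SD, n = 6; exact sign permutation, two-sided, p = 0.03125). Among loci of at least 1 FPKM this difference was -0.74. As for detection, the p-value reflects only the spread among libraries. Loci listed in all 6 libraries had a median of 4.55 FPKM and those listed in 1 a median of 0.480 FPKM, and the highest of those listed in 1 reached 68.9 FPKM. Between 193 and 216 loci per library reached 10 FPKM and between 17 and 21 reached 100 FPKM. Together the loci without an ID held 5.80%, 5.15% and 5.82% of all locus FPKM in the knockouts and 5.15%, 4.997% and 5.22% in wild type.

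The genotypes overlapped in both of these totals. The Prss53-/- libraries listed 1272 ± 15.9 loci without an ID, against 1223 ± 58.2 for the wild-type libraries (SD, n = 3 for each; exact permutation test, two-sided, p = 0.3). Their share of the summed FPKM was 5.59% ± 0.383 in Prss53-/- skin, against 5.12% ± 0.115 in wild-type skin (exact permutation test, two-sided, p = 0.3). The difference in number, 49.3 loci, was 19 when wild-type replicate 1 was left out and 77 when replicate 3 of that genotype was. The difference in share, 0.464 points, was 0.102 points without the most abundant locus, described next. The smallest p that 3 against 3 allows is 0.1, and it was reached by the number of loci at 1 FPKM or more, which was 764, 765 and 787 in the knockouts and 714, 714 and 728 in wild type (exact permutation test, two-sided, p = 0.1). The groups did not overlap in that count. The loci with an ID went the other way, with 9950, 9982 and 9912 at 1 FPKM or more in the knockouts and 10113, 10095 and 10039 in wild type.

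Some loci without an ID were among the most abundant transcripts of the skin. Ranked by the wild-type mean, 8 were among the 100 highest genes, the best at rank 35, and the 10 most abundant held between 36.3% and 39.9% of the summed level of all 2521 in the knockouts and between 30.7% and 33.6% in wild type. The highest of all was a plus-strand locus on chromosome 19 between 42079904 and 42293287, with 2015, 1330 and 1892 FPKM in Prss53-/- skin, against 907, 578 and 693 FPKM in wild-type skin. The groups did not overlap, and the limma log2 fold change was 1.27 ± 0.24 SE, with an adjusted p of 0.0785 that missed the threshold of 0.05. This locus spans 213384 bases and overlaps a locus with an ID on the same strand, which averaged 105 ± 70.4 FPKM in knockout and 66.4 ± 24.5 FPKM in wild type.

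**Figure D3:**
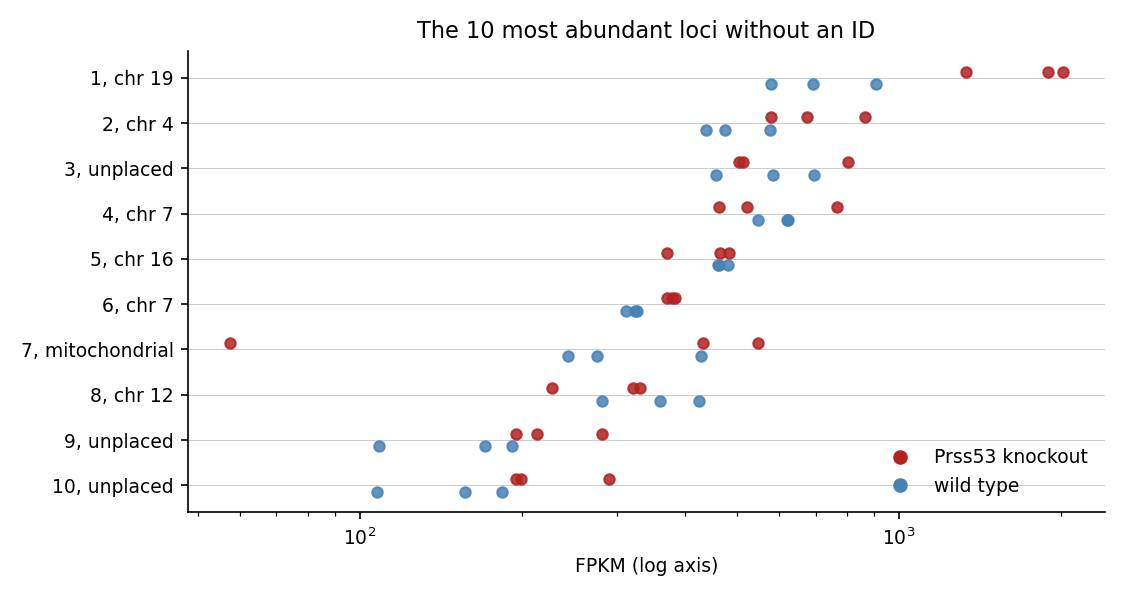
FPKM (log axis) of the 10 most abundant loci without an Ensembl ID in each library, 3 knockout points above 3 wild-type points per locus, ordered by the mean over all libraries. In the chromosome 19 locus at the top the knockouts lie between 1330 and 2015 FPKM and the wild types between 578 and 907, and in the mitochondrial locus 1 knockout lies far below all others at 57.4 FPKM.

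The chromosome 19 locus joined many starts under 1 name. It had 25 first exons, which fall into 12 groups that do not overlap, and 7 last exons in 5 such groups, and no last exon of it was listed in knockout replicate 2 or wild-type replicate 1. Its level is therefore a sum over first exons and may add up several neighbouring transcripts. The group from 42079904 to 42080841 had 1046, 946 and 705 FPKM in Prss53-/- skin, against 730, 289 and 392 FPKM in wild-type skin, with overlap. The group from 42135210 to 42135982 had 261, 218 and 333 FPKM in Prss53-/- skin, against 84.6, 95.4 and 147 FPKM in wild-type skin, without overlap. The group from 42082873 to 42083579 had 348, 134 and 470 FPKM in Prss53-/- skin, against 48.7, 126 and 52.3 FPKM in wild-type skin, also without overlap. The first exons from 42267244 to 42267685 had 341 and 330 FPKM in knockout replicates 1 and 3, were not listed in knockout replicate 2, and in wild type were listed only in replicate 3, at 15.4 FPKM. These pieces were not tested singly.

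**Figure D4:**
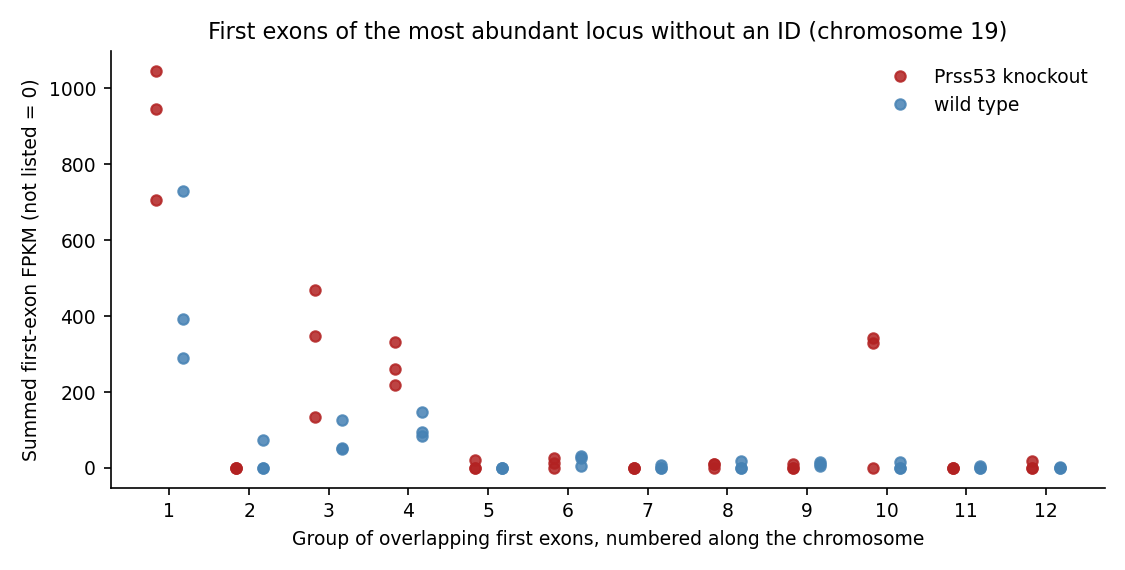
Summed FPKM of each of the 12 groups of overlapping first exons of the most abundant locus without an ID, on chromosome 19, in the 3 knockout (left of each position) and 3 wild-type libraries (right). Groups 3 and 4 do not overlap between the genotypes, group 3 at 134 to 470 FPKM in knockout and 48.7 to 126 FPKM in wild type and group 4 at 218 to 333 FPKM in knockout and 84.6 to 147 FPKM in wild type, and group 10 is high in 2 knockouts, at 330 and 341 FPKM.

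The other abundant loci differed less between the genotypes. A short locus on chromosome 4 from 39676228 to 39677790, 3377 bases downstream of a same-strand locus with an ID, had 675, 579 and 866 FPKM in Prss53-/- skin, against 476, 439 and 575 FPKM in wild-type skin. The lowest knockout lay just above the highest wild type, and it did not pass (limma adjusted p = 0.294). On chromosome 7, a locus from 157929953 to 157932161 had 385, 378 and 371 FPKM in Prss53-/- skin, against 327, 312 and 324 FPKM in wild-type skin. These groups did not overlap and each was tight, but the difference was small (limma log2 fold change 0.24 ± 0.14 SE, adjusted p = 0.434). A second chromosome 7 locus, from 173128295 to 173131747, had 522, 463 and 769 FPKM in Prss53-/- skin, against 622, 548 and 620 FPKM in wild-type skin, with overlap. An unplaced locus from 100801 to 102230 had 505, 514 and 804 FPKM in Prss53-/- skin, against 694, 457 and 583 FPKM in wild-type skin, also with overlap. Knockout replicate 3 was the highest library in both of these.

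A locus on chromosome 16 from 47977902 to 48043774 was as steady in sum as it was variable in its starts. Its level was 465, 370 and 484 FPKM in Prss53-/- skin, against 481, 463 and 462 FPKM in wild-type skin. The first exon from 47977902 to 47978030 had 100, 52.9 and 387 FPKM in Prss53-/- skin, against 50.9, 49.997 and 54.5 FPKM in wild-type skin, so that knockout replicate 3 stood far above the other libraries. In knockout replicate 3 and wild-type replicate 1 the first exon from 48035746 to 48036268 was not listed. In the other libraries it had 109 and 160 FPKM in knockout replicates 1 and 2 and 88.0 and 239 FPKM in wild-type replicates 2 and 3. The last exon from 47986601 to 47987239 had 409, 317 and 484 FPKM in Prss53-/- skin, against 430, 413 and 408 FPKM in wild-type skin.

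A pair of minus-strand loci on 1 unplaced scaffold had nearly the same level in each library. The locus from 668053 to 681393 had 194, 281 and 213 FPKM in Prss53-/- skin, against 191, 171 and 109 FPKM in wild-type skin. The locus from 653755 to 663051 had 195, 290 and 199 FPKM in Prss53-/- skin, against 183, 157 and 108 FPKM in wild-type skin. In each of them the lowest knockout lay just above the highest wild type, and neither passed (limma adjusted p = 0.337 and 0.300). Near-identical copies can share reads and neighbouring pieces can share a transcript, and which holds here was not tested, so the pair may not be 2 independent measurements.

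A total of 188 loci lay opposite to a gene with an ID. Without strand information, reads over bases that both share cannot be told apart between the 2 strands. The most abundant was on the mitochondrial chromosome from 15760 to 17250, plus strand, with 547, 433 and 57.4 FPKM in Prss53-/- skin, against 275, 428 and 243 FPKM in wild-type skin. Knockout replicate 3 lay far below the rest, and the groups overlapped. The minus-strand locus that it overlaps was not listed in any knockout and averaged 33.9 ± 12.4 FPKM in wild type (SD, n = 3). That minus-strand locus passed as lower in Prss53-/- skin (limma on single loci, adjusted p = 0.000482). It met the filter through its wild-type libraries alone, with missing knockout rows entered as 0, so it had to differ in order to be tested. On chromosome 12, a minus-strand locus from 128515971 to 128528788 had 321, 330 and 227 FPKM in Prss53-/- skin, against 426, 281 and 360 FPKM in wild-type skin. The ID locus on its other strand averaged 0.448 FPKM in knockout and 1.01 FPKM in wild type, so the files put nearly all of the level there in the locus without an ID. On chromosome 13, a locus from 80449532 to 80458362 averaged 79.7 ± 9.58 FPKM in knockout and 74.8 ± 7.89 FPKM in wild type (SD, n = 3 per group), against 10.7 and 9.36 FPKM for the gene opposite to it. Loci on chromosomes 2 (169359000 to 169378439), 9 (16164596 to 16169004) and 13 (140357246 to 140389019) averaged 48.7, 68.3 and 25.3 FPKM in knockout and 72.8, 48.1 and 24.5 FPKM in wild type. All 6 were more abundant than the ID locus on their other strand in the means of both genotypes, and none of the 6 passed the genotype test (lowest limma adjusted p = 0.371).

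Among loci over 50 kb from any ID locus on a chromosome, the most abundant after that of chromosome 16 lay on chromosome 7 between 32329537 and 32331364. It had 39.4, 28.1 and 14.1 FPKM in Prss53-/- skin, against 39.2, 44.2 and 36.5 FPKM in wild-type skin. On the X chromosome, the locus at 105991123 to 105996942 had 27.6, 23.9 and 38.8 FPKM in Prss53-/- skin, against 31.8, 24.2 and 5.93 FPKM in wild-type skin. On chromosome 8, the locus at 100433036 to 100474393 had 21.7, 17.3 and 23.3 FPKM in Prss53-/- skin, against 27.3, 12.4 and 21.4 FPKM in wild-type skin. The groups overlapped in all 3. On chromosome 14 a locus from 35207108 to 35214866 had 19.3, 18.1 and 17.2 FPKM in Prss53-/- skin, against 23.6, 25.2 and 19.8 FPKM in wild-type skin. On chromosome 1, the locus at 121985468 to 122171013, 185546 bases long, had 16.0, 16.8 and 16.3 FPKM in Prss53-/- skin, against 12.3, 14.5 and 13.3 FPKM in wild-type skin. Neither of these pairs of groups overlapped, and neither passed (limma adjusted p = 0.376 and 0.383).

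The longest loci listed in all 6 libraries were expressed at modest levels. The longest spanned 982393 bases on chromosome 9 between 21077194 and 22059586, with 1.53, 1.81 and 2.89 FPKM in Prss53-/- skin, against 3.32, 0.389 and 0.914 FPKM in wild-type skin. The next 3 spanned 524089 bases on chromosome 7, 457737 bases on chromosome 14 and 396862 bases on an unplaced scaffold. They averaged 1.97, 10.1 and 3.45 FPKM in knockout and 1.74, 11.7 and 3.56 FPKM in wild type. The fifth, on chromosome 13 from 115755664 to 116123633, had 16.0, 16.2 and 9.49 FPKM in Prss53-/- skin, against 14.9, 14.4 and 13.3 FPKM in wild-type skin. In all 5 the groups overlapped. The chromosome 7 locus began 247 bases from a gene with an ID, head to head with it.

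For the genotype comparison, a gene entered if 3 or more of the 6 libraries had 1 FPKM or more, and limma was run on log2(FPKM + 1) over the whole table. A total of 730 of the 2521 loci without an ID (29.0%) passed this filter. The other 1791 reached 1 FPKM in fewer than 3 libraries and were not tested. They were not all low, since loci listed in 1 library reached up to 68.9 FPKM and those listed in 2 up to 145 FPKM. Of the 730, 23 passed at an adjusted p under 0.05 (3.15%), against 0.944% of all 10809 genes tested. Higher in knockout were 16 (2.19%, against 0.546% of all genes), and lower were 7 (0.959%, against 0.398%). In all 23 the knockouts and wild types did not overlap. Much of the count rests on the filter and on missing rows. Of the 730, 31 reached 1 FPKM in all 3 libraries of 1 genotype and in no library of the other. These 31 had to differ in order to be tested, and 16 of the 23 were among them. They were 10 of the 16 that rose and 6 of the 7 that fell. For them an adjusted p given below is therefore no independent evidence of a difference. Among genes listed in all 6 libraries and fitted alone, 4 of 613 loci without an ID passed (0.653%), 3 higher and 1 lower, against 0.356% of all 10400 such genes (0.231% higher, 0.125% lower). The count also depended on single libraries. It was 14 without knockout replicate 1, 3 without 2 and 13 without 3, and 3, 4 and 5 without wild-type replicates 1, 2 and 3. Each of these fits tested between 678 and 702 loci without an ID. Of the 23, 5 passed in every one of these fits that they entered, 9 in some and 9 in none (largest limma adjusted p = 0.216). The 5 are XLOC_008478, XLOC_007965, XLOC_062393 and the unplaced loci at 564354 and 36632. Each of these 5 entered only 3 fits, those that left out a library in which it was not listed or under 1 FPKM. From the other fits the filter removed them, so they were never tried without a library that carried their level. The 7 loci that entered all 6 fits are not among these 5.

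Across the 730 tested loci, the groups did not overlap in 203 (27.8%), near the 26.1% of all genes tested. The directions differed from those of all genes, with 123 loci higher in knockout (16.8%, against 9.5% of all genes) and 80 lower (10.96%, against 16.6%). Of the 123, 22 reached 1 FPKM in the knockouts alone, and of the 80, 9 did so in wild type alone. These had to differ in order to be tested, and how many of all genes were of this kind was not worked out. The median log2 fold change was 0.03 for the 730 and -0.07 for all genes tested, and 0.11 and 0.02 with libraries rescaled to the same median. Among those listed in all 6 libraries it was 0.007 for the loci without an ID and -0.07 for all genes. This difference in direction was not tested. Knockout replicate 3 stood apart here as it did over all genes. On log2(FPKM + 1) across the 730 loci it correlated with knockout replicates 1 and 2 at 0.876 and 0.891 (Pearson, across loci, which are not independent replicates). These 2 correlated with each other at 0.909, and wild-type pairs lay between 0.916 and 0.934. It lay at least 2-fold below both other knockouts, on the FPKM + 1 scale, in 40 loci, against 17 and 20 for replicates 1 and 2 and between 10 and 20 for the wild types. The part of this library in the results was not tested beyond leaving it out.

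**Figure D5:**
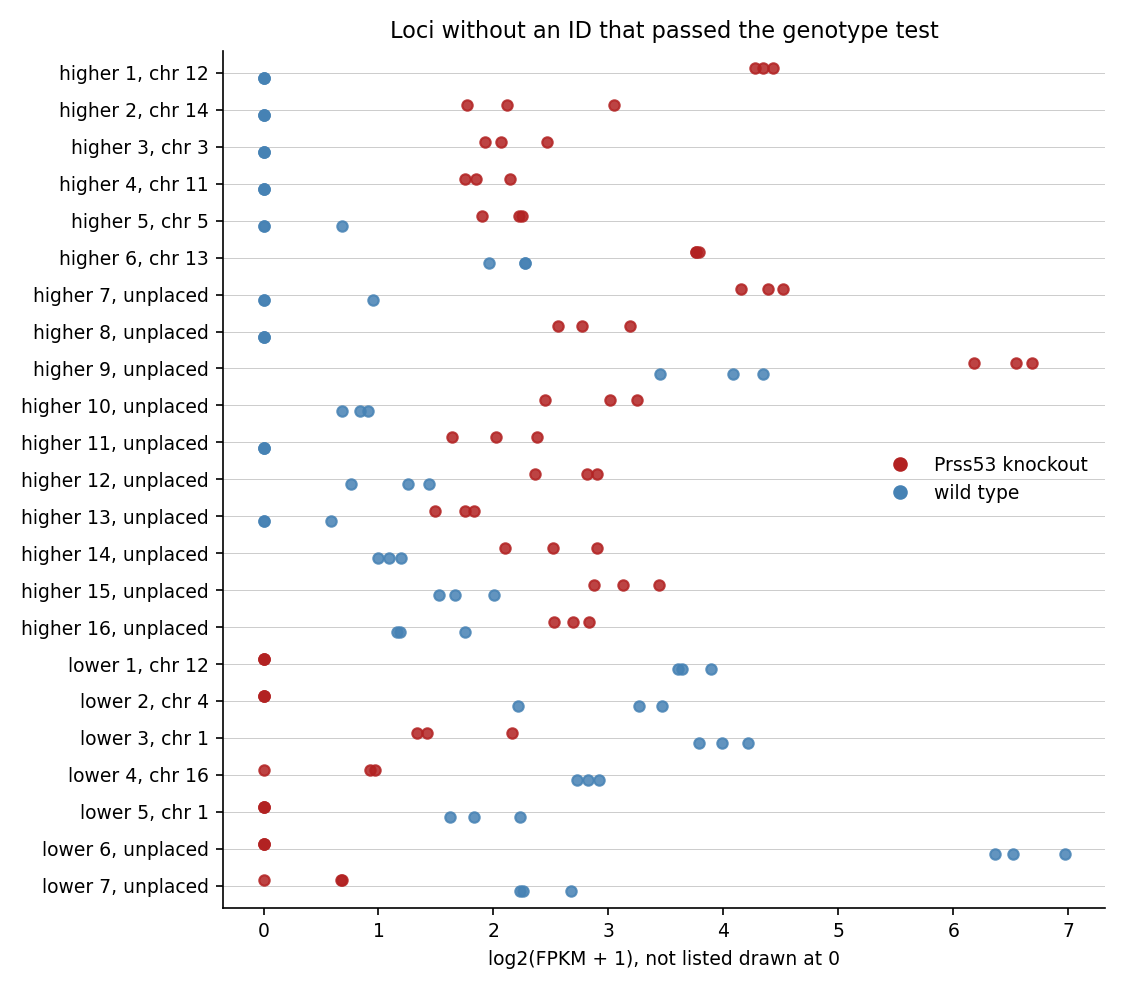
log2(FPKM + 1) of the 23 loci without an Ensembl ID that passed the genotype test, with 3 knockout points above 3 wild-type points per row and libraries that do not list the locus drawn at 0. The groups are apart in every row; 6 of the 16 higher loci have all wild types at 0 and 4 of the 7 lower loci have all knockouts at 0.

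Among loci that rose in knockout on chromosomes, XLOC_008478 on chromosome 12 from 62137536 to 62144723, minus strand, had 18.4, 20.5 and 19.3 FPKM in the knockouts and was absent from the wild-type tables (limma adjusted p = 4.36e-05). It met the filter through its knockout libraries alone, so it had to differ in order to be tested. It lies 50230 bases from the nearest gene with an ID, on the same strand, which averaged 41.4 ± 7.52 FPKM in knockout and 52.1 ± 4.86 FPKM in wild type. Another 3 chromosomal loci that rose were not listed in any wild-type library and likewise entered the test through the knockouts alone. On chromosome 3, the locus at 96296837 to 96326366 reached 4.53, 3.19 and 2.79 FPKM in Prss53-/- skin (limma adjusted p = 0.00662). On chromosome 11, the locus at 72183668 to 72228665 reached 2.37, 2.61 and 3.41 FPKM in Prss53-/- skin (limma adjusted p = 0.00761). On chromosome 14, the locus at 157383216 to 157387808 reached 2.40, 3.33 and 7.27 FPKM in Prss53-/- skin (limma adjusted p = 0.03055), and it is 838915 bases from any listed gene with an ID. None of these 3 passed when a wild-type library was left out, with limma adjusted p-values of up to 0.0614, 0.0619 and 0.158. The chromosome 3 locus overlaps a gene on the other strand whose level was 3.56 ± 0.262 FPKM in knockout and 4.10 ± 0.538 FPKM in wild type. On chromosome 5, the locus at 20899411 to 20919160 had 3.76, 2.74 and 3.66 FPKM in the knockouts and 0.609 FPKM in wild-type replicate 3 alone. It too entered the test through the knockouts alone. The chromosome 13 locus from 139870575 to 139877067 was the only one of the chromosomal loci that rose to be listed in all 6 libraries, with 12.9, 12.5 and 12.6 FPKM in Prss53-/- skin, against 3.84, 2.89 and 3.83 FPKM in wild-type skin (limma log2 fold change 1.60 ± 0.16 SE, adjusted p = 0.00790). With single libraries left out, 3 of 6 fits kept it under the threshold (largest limma adjusted p = 0.0719). The gene head to head with it at 4874 bases averaged 9.30 ± 2.60 FPKM in knockout and 6.84 ± 1.37 FPKM in wild type and did not pass (limma on single loci, adjusted p = 0.449).

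On unplaced scaffolds 10 loci rose. The most abundant was XLOC_061380, 1484 bases long, from 73580 to 75063, with 71.6, 102 and 92.1 FPKM in Prss53-/- skin, against 19.3, 9.92 and 15.9 FPKM in wild-type skin (limma log2 fold change 2.51 ± 0.26 SE, a 5.70-fold change on the log2(FPKM + 1) scale, adjusted p = 0.0113). When single libraries were left out it stayed under the threshold in 3 of 6 fits, and its largest limma adjusted p was 0.0687. A minus-strand locus from 564354 to 572808 had 21.9, 16.8 and 19.9 FPKM in the knockouts and was listed in wild type in replicate 3 alone, at 0.936 FPKM (limma adjusted p = 0.00179). It met the filter through its knockout libraries alone. The gene nearest to it, 80753 bases away, had 55.3, 264 and 225 FPKM in Prss53-/- skin, against 43.0, 55.4 and 37.6 FPKM in wild-type skin, with overlap. Not listed in wild type were a locus from 36632 to 38672 (4.90, 8.10 and 5.81 FPKM in the knockouts) and a locus from 39332 to 43219 (2.11, 3.07 and 4.21 FPKM). The locus at 39332 begins 346 bases past the end of a same-strand gene that averaged 7.90 ± 1.98 FPKM in knockout and 6.55 ± 0.446 FPKM in wild type. The remaining 6 averaged between 2.24 and 7.95 FPKM in knockout and between 0.168 and 2.35 FPKM in wild type, with limma log2 fold changes between 1.31 and 2.10. Of these 6, 2 overlap a gene with an ID on the opposite strand and 2 lie on a sequence with none.

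The 7 loci that fell included the largest log2 fold change of the 23 (-6.62). XLOC_062393, a minus-strand locus on an unplaced scaffold from 353834 to 358938, was not listed in any knockout and had 124, 91.0 and 81.4 FPKM in wild type (limma adjusted p = 3.05e-05). This locus met the filter through its wild-type libraries alone, so it had to differ in order to be tested. The gene nearest to it, 54532 bases away on the same strand, averaged 3.17 ± 1.25 FPKM in knockout and 4.65 ± 0.829 FPKM in wild type. XLOC_007965 on chromosome 12 from 122309799 to 122337136 was likewise not listed in knockout, against 11.2, 11.5 and 13.8 FPKM in wild type. On chromosome 1, the locus from 148199825 to 148228576 was the only fall listed in all 6 libraries, with 3.48, 1.69 and 1.52 FPKM in Prss53-/- skin, against 17.6, 14.9 and 12.8 FPKM in wild-type skin (limma log2 fold change -2.35 ± 0.26 SE, adjusted p = 0.0113). With single libraries left out, 2 of 6 fits kept it under the threshold (largest limma adjusted p = 0.0783). The gene nearest to it, on the same strand at 78770 bases, had 6.31, 3.28 and 1.11 FPKM in Prss53-/- skin, against 14.5, 12.2 and 13.8 FPKM in wild-type skin. These groups did not overlap either, although the gene did not pass (limma on single loci, log2 fold change -1.84, adjusted p = 0.109).

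On chromosome 4, the locus at 36509746 to 36511905 lies inside a gene with an ID on the same strand, was not listed in knockout and had 8.62, 3.64 and 10.02 FPKM in wild type. The ID locus around it had 5.63 and 7.48 FPKM in knockout replicates 1 and 3, was not listed in replicate 2, and had 24.5, 17.4 and 22.3 FPKM in wild type. Its groups did not overlap and it did not pass (limma on single loci, log2 fold change -2.53, adjusted p = 0.179). Both loci were thus low in the knockouts, and whether they are 1 transcript was not tested. On chromosome 16, the locus from 40859684 to 40869171, inside a gene on the other strand, had 0.904 and 0.956 FPKM in knockout replicates 1 and 2, was not listed in replicate 3, and had 5.64, 6.09 and 6.55 FPKM in wild type. The gene around it averaged 8.94 ± 2.50 FPKM in knockout and 10.8 ± 0.492 FPKM in wild type. The other 2 that fell were on chromosome 1 from 186696671 to 186715590 (not listed in knockout; 3.68, 2.55 and 2.07 FPKM in wild type) and on an unplaced scaffold from 40 to 3328 (0.596 and 0.605 FPKM in knockout replicates 1 and 2, not listed in 3; 5.38, 3.69 and 3.79 FPKM in wild type).

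The nearest locus with an ID was tested by itself, in the fit on single loci and not as a sum over its ID, for 17 of the 23. Of those 17 neighbours 0 passed (smallest limma adjusted p = 0.109), with log2 fold changes between -2.53 and 1.71. A neighbour that did not pass is not shown to be unaltered. By position, 9 of the 23 lay over 50 kb from any ID locus, where 117 loci were tested. On a sequence without an ID locus lay 4 (112 tested), opposite to a gene 4 (67 tested) and inside a gene on its strand 1 (10 tested on the same strand). The other 5 lay apart within 50 kb, where 80 were tested within 1 kb, 111 at 1 to 5 kb and 233 at 5 to 50 kb. Unplaced scaffolds held 10 that rose and 2 that fell (359 tested), and chromosomes held 6 and 5 (371 tested). Over all 730 tested 3.15% passed, against 0.944% of all genes, and differences between positions were not tested.

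Over all 2521 loci, with no filter on level, 33 were listed in the 3 knockouts and in no wild-type library (1.31%, against 0.487% of all 14797 genes), and 24 in the 3 wild types and in no knockout (0.952%, against 0.507%). Only a locus listed in exactly 3 libraries can be of either kind. That held for 190 of the 2521 loci without an ID, against 392 of the 12759 with one. The comparison with all genes thus depends also on how regularly loci were listed, which was not corrected for. Most of the 33 and of the 24 were faint. The mean where listed had a median of 0.959 FPKM among the 33 and 0.766 FPKM among the 24, and 6 of the 33 and 5 of the 24 reached 1 FPKM in each library that listed them. Of the 11 loci that did, 10 are among the 23 described above. The other is an unplaced locus from 3458677 to 3461026, not listed in knockout and at 1.00, 2.46 and 1.05 FPKM in wild type, which did not pass (limma adjusted p = 0.0861). The sixth of the wild-type loci by level, on chromosome 2 from 165397290 to 165409848, was not listed in knockout, had 0.957, 0.681 and 1.90 FPKM in wild type and was too low to be tested. At these levels a transcript that was not assembled and one that was not there cannot be told apart.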

How the data were processed

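Whole skin was profiled in 6 libraries, 3 per genotype, prepared with the NEBNext Ultra RNA kit per the labels' protocols. Per the submitters' processing notes, bcl2fastq (version 2.17.1.14) and cutadapt were used. For the aligner, the assembler, the event caller and the build, nothing is given in the sources used here. Per the file headers, the deposited values are FPKM per transcript event of an assembled locus. They hold no counts, so depth is unknown. No row is at 0 (lowest value 0.000171), and missing rows entered as 0.

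Locus levels were computed as described above, and loci sharing an Ensembl ID were summed, giving 14797 genes. The RefSeq gene table at hand (38822 genes) matched 0 of 12276 Ensembl IDs, so no names were assigned and the marker lists were not used. Distances are the bases between 2 spans. limma 3.58.1 in R 4.3.3 (empirical Bayes with trend, two-sided, a single genotype term, Benjamini-Hochberg over all 10809 genes tested) was run on log2(FPKM + 1) after being tested on simulated data. This scale understates the change of low genes. Values with 1 number per library were compared by exact permutation.

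The loci and comparisons were chosen with earlier results of these data known. Loci named are all that passed, the 10 most abundant, up to 6 per direction listed in 1 genotype, the 5 longest, and the 6 most abundant opposite to a gene or over 50 kb from one. Pseudocount, filters, locus definition, scaling, library weights, a replicate block and leaving out each library were tried.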

Additional observations from a re-analysis of the deposited data

How the results depend on the processing

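The number of loci without an ID that passed the genotype test was 23 of 730 tested in the report. It was 15 of 730 with a pseudocount of 0.1 FPKM and 7 of 347 with a mean of at least 5 FPKM. With only genes listed in all 6 libraries it was 4 of 613, and with library quality weights 41 of 730. It lay between 3 and 14, of 678 to 702 tested, when 1 library was left out. Of all genes, 0.944% passed in the main fit and 0.356% among those listed in all 6. For the other alternatives the share of all genes was not worked out. Their counts do not show whether these loci or all genes moved. Of the 14 that passed without knockout replicate 1 only 2 were higher in knockout, and without any single wild-type library 0 were lower. Loci that reach 1 FPKM in 1 genotype alone leave the test once that genotype has 2 libraries, which by construction removes higher loci in the first case and lower loci in the second. The count was between 19 and 26, of 665 to 2521 tested, with no filter on low values, first-exon values only, single loci, rescaled libraries or the replicate block. All 23 passed also with single loci, with rescaled libraries and with library quality weights. Of the named loci that passed, 0 changed sign under an alternative that could be fitted.

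Among the named loci that did not pass, 11 changed sign under at least 1 alternative, with log2 fold changes as given here and limma adjusted p-values of 0.296 or more. Rescaled libraries gave 0.036 for the fifth longest locus on chromosome 13, 0.0055 for the abundant locus of chromosome 16, 0.045 for the second abundant locus of chromosome 7 and 0.051 for the fourth longest, unplaced locus. Library quality weights gave -0.0081 for the chromosome 13 locus at 80449532, 0.13 for the fifth longest, -0.050 for the chromosome 8 locus, 0.031 for the fourth longest, -0.13 for the abundant unplaced locus at 100801 and 0.44 for the mitochondrial locus. First-exon values gave 0.45 for the chromosome 16 locus. Leaving out 1 library gave -0.18 to 0.17 for the fifth longest, -0.061 to 0.13 for the chromosome 13 locus at 140357246, -0.41 to 0.026 for the third longest, -0.17 to 0.018 for the chromosome 16 locus, -0.28 to 0.089 for the second chromosome 7 locus, -0.0091 to 0.26 for the second longest, -0.22 to 0.32 for the chromosome 8 locus, -0.15 to 0.071 for the fourth longest, -0.16 to 0.20 for the unplaced locus at 100801 and -0.95 to 0.67 for the mitochondrial locus.

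Same-numbered knockout and wild-type libraries deviated together at -0.005, 0.14 and 0.05 (Pearson r of deviations from the group means, across genes), so the numbers were not taken as pairs. With the replicate block, 26 loci without an ID passed, 19 of them among the 23. The most abundant locus, on chromosome 19, passed only with this block (limma adjusted p = 0.0437) and had 0.0537 to 0.277 under the other alternatives.

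With 5 libraries the exact sign permutation cannot go below 0.0625, so the detection and level differences could not pass there. The detection difference then lay between -39.6 and -38.6 points, the level difference between -1.59 and -1.54 and the strand difference, which has no test, between 12.3 and 12.5 points. With only values of at least 1 FPKM the level difference was -0.74 and the strand difference 5.79 points. The counts of loci listed in 1 genotype alone, 33 and 24, were 6 and 5 with a minimum of 1 FPKM, and lay between 42 and 70 and between 30 and 56 when 1 library was left out; this alternative and the strand comparison were chosen after seeing the data.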
